A study of Mus musculus with 10 samples.

Results

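Narrow islands of H3K4me3 in wild-type mouse embryonic stem cells that were still marked after loss of BAF250a are described here, with what became of their width, their neighbours and their reads. The 4002 members were chosen on measured values from the wild-type (WT) H3K4me3 list, which holds 28365 islands, so they make up 14.1% of it. A member lies on 1 of the 19 autosomes, is 1000 bp wide or less in WT, and overlaps by at least 1 bp a H3K4me3 island of the knockout (KO) list. Every such KO island is under 10000 bp wide, and no H3K27me3 island of either genotype touches the member.

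The cells, of strain 129/C57BL/6, were grown with LIF and serum on embryonic fibroblast feeders, and whether feeder chromatin entered the libraries was not tested. WT cells were given ethanol for 36 hours from 4 hours after passage. KO cells, labelled BAF250a Knockout, were given 1 µM 4-hydroxytamoxifen on the same schedule, so loss of the gene and exposure to the drug cannot be told apart. No label names the allele or the recombinase, and deletion of the gene was not checked. Each genotype had 1 H3K4me3 library, 1 H3K27me3 library and 1 input library, and the title of the KO H3K27me3 library reads "H2K27me3" while its antibody is given as H3K27me3.

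BAF250a, encoded by Arid1a, is a DNA-binding subunit of the BAF (SWI/SNF) complex, which moves and evicts nucleosomes. H3K4me3 is written by the SET1 and MLL methyltransferase complexes. It forms broad, strong domains over active CpG-rich promoters, and narrow, weak patches at weaker promoters, at active enhancers and along the edges of the strong domains. H3K27me3, the Polycomb mark, often lies with H3K4me3 at developmental promoters in these cells, and such sites are not among the members.

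With 1 library per genotype and mark there is no replicate spread, so no p-value is given and each difference below is one between these libraries. The WT and KO H3K4me3 lists hold 28365 and 40978 islands with 9565481 and 13512350 ChIP reads. Over all islands with a partner in the other genotype, KO held 1.31 times as many reads as WT, and "scaled reads" below are KO over WT ratios divided by that value. "Fold over input" is ChIP over input reads, corrected by the ChIP to input depth ratio of each list, which was 1.78 in WT and 1.35 in KO. All intervals are 95% intervals for counting error alone. The lists are in mouse build mm9, of which no annotation was used, so members are given by position and not by gene.

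The members were narrow by the rule that chose them, and most held few reads. In WT 1369 of them were 1000 bp wide, 1300 were 800 bp, 895 were 600 bp, 368 were 400 bp and 70 were a single 200 bp window. Their WT islands held a median of 35 ChIP reads (quartiles 28 and 47, highest 225) and 9 input reads, at a median of 2.36-fold over input (1.79 and 3.37). So few input reads stand behind each fold that single members are uncertain, and sums over members carry the values below. Of the members, 54.7% had a deposited FDR of 1e-05 or less in WT. Requiring that FDR in both H3K4me3 lists left 2124 members, and a width limit of 800 bp left 2633.

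Most narrow WT islands had a KO partner, though a smaller share than of all WT islands. Of 5263 on autosomes, 4573 (86.9%) overlapped a KO island. Of all 28365 WT islands, of any width and chromosome, 26850 did. Another 375 were dropped because a KO island reached 10000 bp, and 196 more because of H3K27me3. The 690 narrow islands with no KO island had fewer reads than the members (median 29, quartiles 26 and 32), and a median fold of 2.92. They also had fewer input reads per kb, 7.70 against 11.9. The deposited FDR was 1e-05 or less for 58.7% of them and for 54.7% of the members. The reverse share was much lower: of 8346 narrow autosomal KO islands, 2157 (25.8%) overlapped a WT island.

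In the KO list most members lay in wider islands. For 3466 members a single KO island overlapped no other WT island (1 to 1 members), and the other 536 were merged with other WT islands, among them 5 that also met a second KO island. Among the 1 to 1 members the KO island was wider in 2728 (78.7%), equal in 522 (15.1%) and narrower in 216 (6.23%). Their median width was 800 bp in WT and 1200 bp in KO (quartiles 800 and 1600 bp, widest 9400 bp). Together they covered 2678 kb in WT and 4663 kb in KO, or 1.74 times as much. The change was of 1 or 2 windows of 200 bp in many of them: 667 gained 200 bp, 629 gained 400 bp, 962 gained 600 to 1000 bp, 334 gained 1200 to 2000 bp and 136 gained more.

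**Figure D1:**
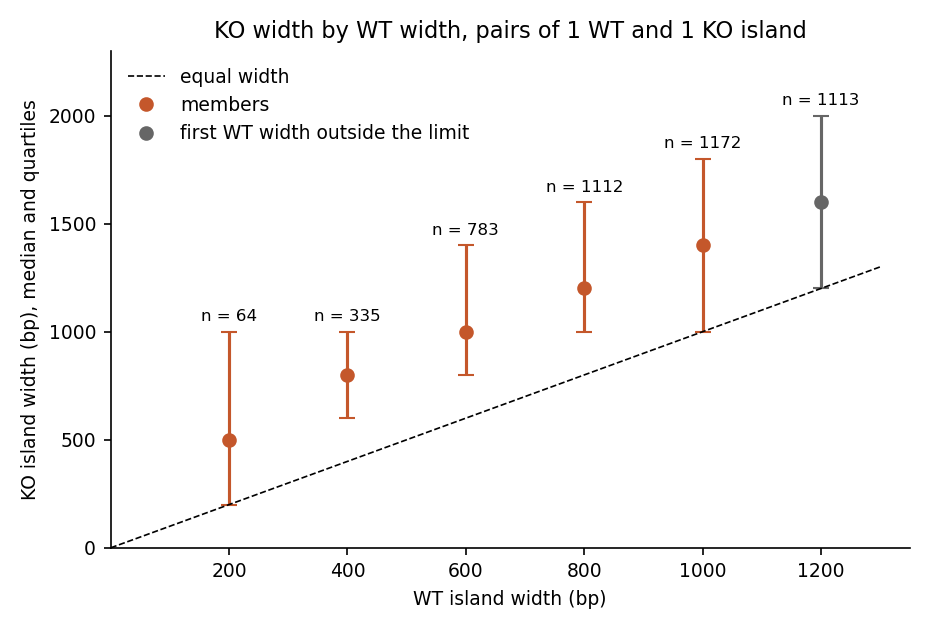
Width of the KO island (vertical axis, bp; points are medians, bars run from the lower to the upper quartile) against the width of the WT island (horizontal axis, bp) for pairs of 1 WT and 1 KO island. The median KO width lies above the dashed line of equal width at each WT width, at 500 bp for WT islands of 200 bp and at 1400 bp for those of 1000 bp; islands of 1200 bp, just outside the limit, have a median of 1600 bp.

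The added windows lay on both flanks. The KO island extended past both ends of the WT island in 1262 of the 1 to 1 members (36.4%) and past 1 end, with the other end unmoved, in another 1262. In 374 it extended past 1 end and stopped short of the other, in 385 (11.1%) both ends were identical, and in 183 it was trimmed with no extension. The left end lay further out in 60.3% and the right end in 59.7%, with a median extension of 400 bp on either side where there was one.

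This widening also holds the effect of the choice, since islands picked for a narrow WT width leave more room above than below. KO islands at least 2 times as wide as their WT islands were found at 1660 of the 4002 members (41.5%) and at 24.7% of all 26850 WT islands with a KO partner. Nothing is read from that difference, as WT width is part of the rule. The same pairs were therefore also picked from the other side. The rule applied with the genotypes exchanged gave 2021 narrow KO islands, and in these KO was wider in 756 (37.4%), narrower in 741 (36.7%) and equal in 524 (25.9%). In the 1825 of them with 1 island in each list, KO was wider in 41.4% and narrower in 29.9%. A choice that treats both lists alike, pairs whose mean width was 1000 bp or less, gave 2024 pairs. Here KO was wider in 1222 (60.4%, interval 58.2 to 62.5%), equal in 522 and narrower in 280 (13.8%). The wider island was thus more often the KO one than the WT one under each of these choices. The margins differed greatly, and the 2 counts were nearly equal over all narrow KO islands. Called length was not greater in KO under each choice. In KO it was 1.30 times that in WT for the pairs chosen on mean width. For the 1825 pairs chosen on KO width it was 0.992 times (1512 kb in WT, 1499 kb in KO). Over all 2021 narrow KO islands, with whole WT islands counted, it was 0.677 times.

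**Figure D2:**
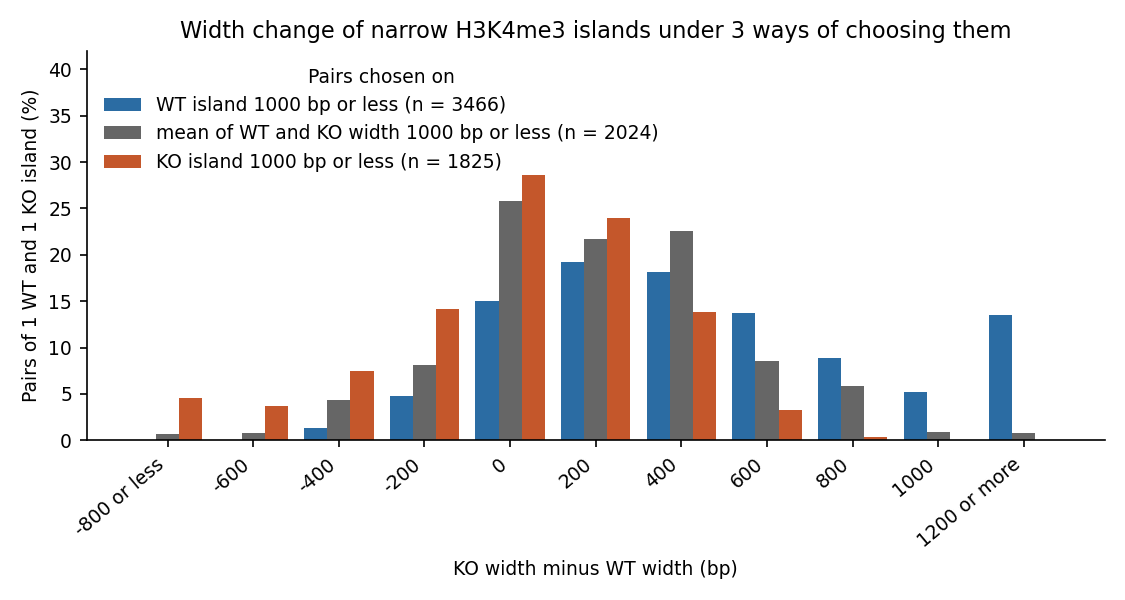
Share of pairs (vertical axis, %) by KO width minus WT width (horizontal axis, bp, in steps of the 200 bp window; the outermost bars pool larger changes), for pairs of 1 WT and 1 KO island chosen on a WT width, a mean width or a KO width of 1000 bp or less. Zero change is the tallest bar for the mean (25.8%) and for the KO choice (28.7%), while pairs chosen on WT width peak at a gain of 200 bp (19.2%) and 13.6% of them gained 1200 bp or more.

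A few members widened by several kilobases with no other WT island under the KO island. The widest such KO island, on chromosome 2, 152068401 to 152077800 (9400 bp, 413 reads), covers a WT member of 1000 bp with 31 reads at 152070401 to 152071400. Its fold over input was 1.74 there and 3.57 over the KO island. On chromosome 11, the member at 8531401 to 8532400 had 34 reads at 2.12-fold, and its KO island, 8528401 to 8537200, had 504 reads at 3.31-fold. Over these KO islands the mean density was 43.9 and 57.3 reads per kb, against 58.8 over the KO islands of all 1 to 1 members, and how reads lie within an island is not in the lists.

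On chromosome 4 the KO island at 41200001 to 41208400 (8400 bp, 318 reads, 3.58-fold) lies almost wholly to the left of its member at 41207801 to 41208800. That member had 32 reads but only 4 input reads, so its WT value of 4.50-fold is poorly determined. The member on chromosome 8, 3550801 to 3551600, had 29 reads and no input read in WT, which gives no fold, while its KO island of 8000 bp had 294 reads and 80 input reads. The fifth, on chromosome 4 at 57699201 to 57700000, went from 30 reads at 1.69-fold in 800 bp to 466 reads at 3.89-fold in 7600 bp. All 5 had few WT reads for their width. The 3 of 1000 bp had 31 to 34, where the lower quartile of 1 to 1 members of that width was 36, and those of 800 bp had 29 and 30, where it was 31.

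Merging took in 536 members (13.4%). Of all WT islands with a KO partner 23.1% were merged, but these are not held to the limits on KO width, chromosome and H3K27me3. Among wider WT islands under the same conditions the shares were close to that of the members. They were 15.7% at 1200 to 2000 bp, 14.2% at 2200 to 4000 bp and 14.3% above 4000 bp. The merged members lay under 509 KO islands, of which 468 joined 2 WT islands, 39 joined 3, 1 joined 4 and 1 joined 5. In most cases a narrow island was absorbed by a much wider neighbour. In 418 of the 509 (82.1%) the widest WT island joined was over 2000 bp, in 71 it was 1200 to 2000 bp, and in 20 each WT island was itself a member. Merging in KO depends on the 10000 bp limit: with no limit on KO width 20.6% of the members were merged. Islands of the other genotype were joined in the exchanged choice too, where 9.65% of the narrow KO islands lay in a WT island that also overlapped another KO island.

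The gaps closed were short. Of the 553 gaps between WT islands bridged by these KO islands, 500 (90.4%) were 1000 bp or less, the median was 400 bp and the longest 4200 bp. Islands of the WT list are never closer than 400 bp, since the caller joins windows across a gap of 200 bp, so the median gap is the shortest possible. How near the next WT island lay went with merging: 485 of 606 members with a WT island within 1000 bp were merged (80.03%), 51 of 399 with one at 1200 to 5000 bp (12.8%), and 0 of 2997 with none within 5000 bp. The nearest neighbour was over 2000 bp wide for 468 of the 606. Joins that made KO islands of 10000 bp or more are left out by the rule, so these gaps and shares hold under that limit only.

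When all WT islands under a merged KO island are counted, the scaled reads changed little, while reads as deposited and fold over input were higher in KO. The 1062 WT islands under the 509 KO islands held 260238 reads over 2699 kb, and the KO islands held 324500 over 3177 kb. That is a ratio of 1.25 as deposited and of 0.948 (0.944 to 0.953) scaled, over 1.18 times the length. These islands are among the shared ones that set the scaling, so nothing is read from a scaled ratio near 1. Members supplied 6.64% of those WT reads. Where the widest WT island was over 2000 bp the scaled ratio was 0.928. It was 1.43 (1.39 to 1.47) where the widest was 1200 to 2000 bp, with 1.69 times the length. In the 20 KO islands that joined members alone it was 1.52 (1.42 to 1.62), with 2.11 times the length and an unscaled density of 47.6 (WT) and 45.1 (KO) reads per kb. Over all 509, fold over input stood at 4.59 (WT) and 6.65 (KO), a ratio of 1.45.

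No KO island joined more than 2 members. The widest of the 28 that joined 2 members spans chromosome 15, 81292401 to 81302200 (9800 bp, 1258 reads, 7.42-fold). In WT, members of 31 and 32 reads flank there an island of 6600 bp with 859 reads, each across a gap of 400 bp. The KO island is 400 bp longer than the span of the 3 WT islands. Its scaled read ratio is 1.04.

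The next, on chromosome 16 at 38518001 to 38527200, joins members of 25 and 39 reads with WT islands of 763 and 45 reads, for 997 reads in KO and a scaled ratio of 0.870. On chromosome 17, 23904401 to 23913400, members of 25 and 46 reads lie on either side of an island of 595 reads, and KO held 854 reads. In these, and in the one on chromosome 15, a strong central island is flanked on both sides by weak ones.

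In the other two of the 5 widest, both members lie on 1 side. On chromosome 11, 105893001 to 105901800, members of 29 and 31 reads precede an island of 696 reads that ends beyond the KO island, and KO held 973 reads. On chromosome 8, 126467801 to 126475600, members of 28 and 32 reads precede an island of 864 reads, and KO held 1168. Scaled ratios of the 5 run from 0.870 to 1.04. Each of the 5 holds a strong WT island, and they do not stand for the 20 that joined members alone, whose scaled ratio was 1.52.

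**Figure D3:**
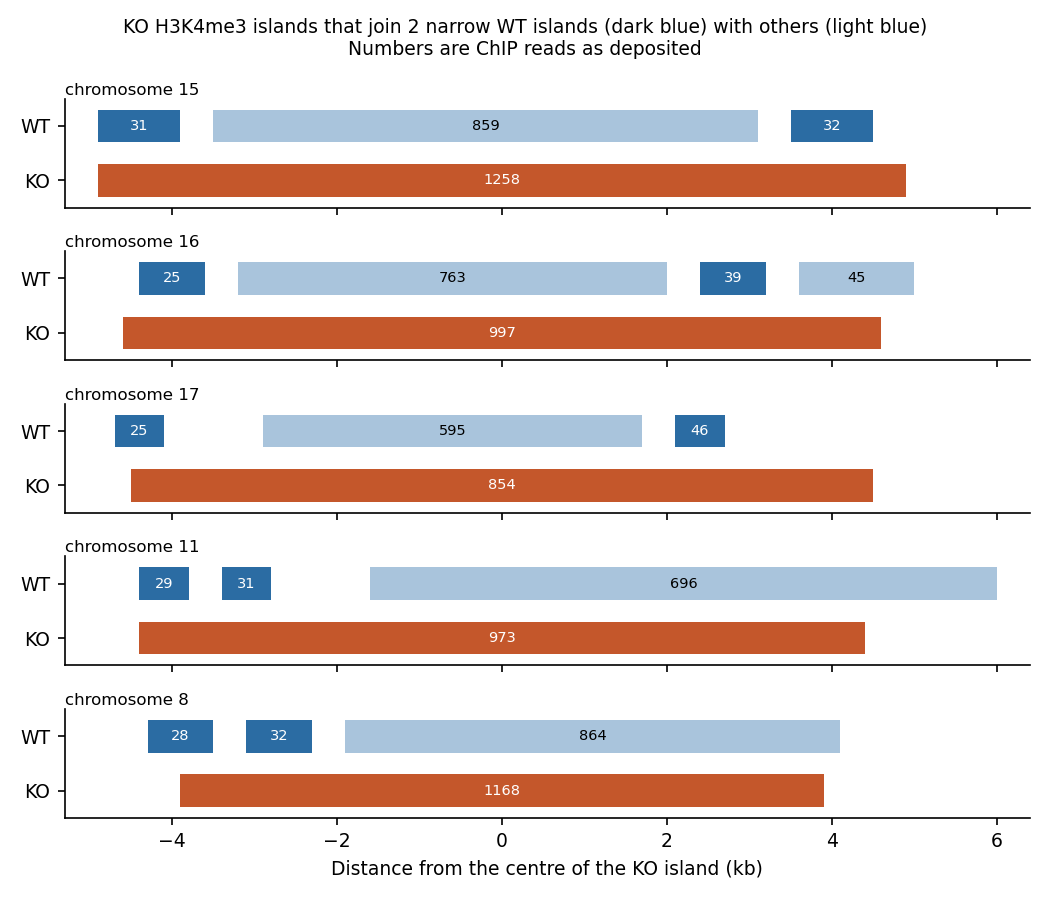
The 5 KO islands named above, each with the WT islands it overlaps, drawn to scale as distance from the centre of the KO island (horizontal axis, kb), with ChIP reads as deposited printed on each bar. Dark blue bars are members and light blue bars other WT islands; each group holds 2 weak members of 25 to 46 reads and an island of 595 to 864 reads, and 1 KO island (orange) runs across the gaps.

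In the 1 to 1 members the KO islands held more reads, over a longer stretch. WT islands held 139302 reads in all (median 36, quartiles 29 and 49), and their KO islands 274157 (median 72, quartiles 51 and 99). The ratio is 1.97 (1.96 to 1.98) as deposited and 1.497 (1.487 to 1.507) scaled. Per kb the reads were 52.0 in WT and 58.8 in KO, so after scaling the density was 0.860 of the WT value. The gain in scaled reads was thus smaller than the gain in called length, 1.74 times.

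Fold over input was higher in KO, at 3.66 against 2.33, with a KO over WT ratio of 1.57 (1.55 to 1.60). That ratio is the product of 3 terms: 1.13 from ChIP reads per kb, 1.05 from input reads per kb (12.6 in WT, 11.9 in KO), and 1.32 from the depth ratios of the lists. Most of it thus comes from the lists' depth ratios, which apply to every island alike. Direction turned with the measure for density: lower in KO when scaled to shared islands, higher as fold over input. KO fold was above WT fold in 2824 of the 3466 (81.5%), a smaller share than in wider islands. In 1 to 1 pairs it was 90.1% at WT widths of 1200 to 2000 bp, 92.5% at 2200 to 4000 bp and 95.8% above 4000 bp. The part of the members' low read counts in this was not tested. A KO fold of at least 1.5 times the WT fold was met by 55.8% of all members, against 58.5% of all WT islands with a KO partner. A KO fold lower by 1.5 times or more was met by 8.22%, against 2.56%. These shares include merged islands, for which the KO fold is that of the whole joined island. In the 1 to 1 members alone the shares were 55.1% and 7.18%, and in the 536 merged members 60.3% and 14.9%. Of all members, 52 had no WT input read. Their WT folds rest on a stand-in count, and its part in these shares was not tested. The deposited FDR was 1e-05 or less for 53.2% of the 1 to 1 members in WT and for 93.2% of their KO islands. The KO islands were longer and held more reads, so this is no comparison at equal width. The share over all islands of each list is not given here, and nothing is read from the difference.

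**Figure D4:**
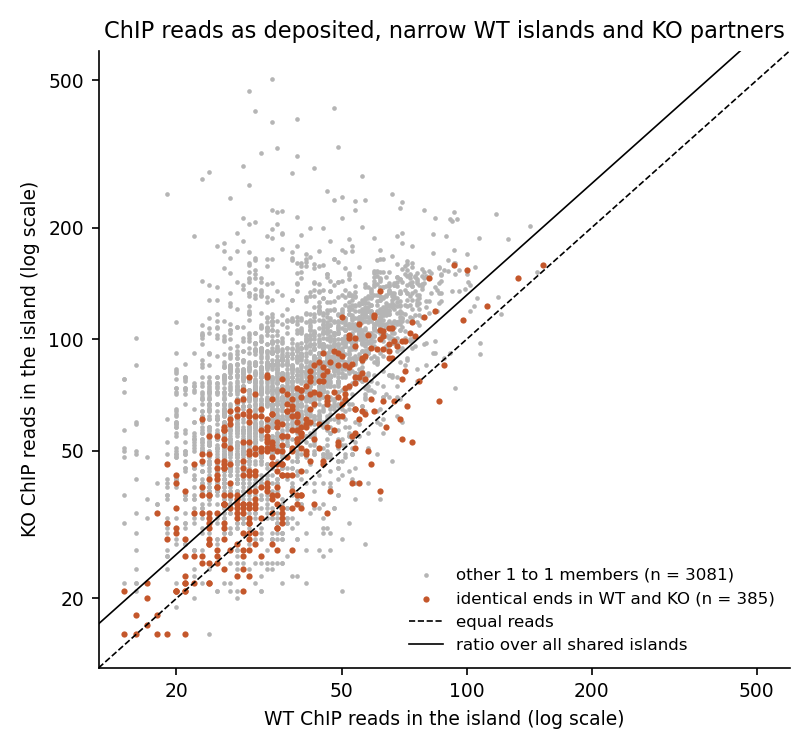
ChIP reads as deposited in the KO island (vertical axis, log scale) against those in the WT island (horizontal axis, log scale) for the 3466 members with 1 WT and 1 KO island. The 385 members with identical ends (orange) spread around the line of the ratio over all shared islands (solid, 1.31), while many of the others (grey) lie well above it, the highest at 504 KO reads for 34 WT reads.

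Reads also differed by less in pairs not picked for a narrow WT width. The scaled ratio was 1.25 (1.24 to 1.26) in the 2024 pairs chosen on mean width and 1.05 (1.04 to 1.06) in the 1825 chosen on KO width, against 1.497 for the members. The ratio of folds was steadier over these choices, at 1.57 for the members, 1.65 (1.61 to 1.68) for the mean and 1.67 (1.63 to 1.71) for the KO choice.

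Members whose KO island had the same ends allow reads to be compared at equal width. There were 385, of which 121 were 1000 bp wide and 17 were 200 bp. They held 15093 reads in WT and 21405 in KO, a scaled ratio of 1.08 (1.056 to 1.102), at 53.6 and 76.1 reads per kb as deposited. Fold over input stood at 2.67 and 4.38, with a ratio of 1.64 (1.56 to 1.73), and it was higher in KO in 310 of the 385 (80.5%). Input reads per kb were 11.3 and 12.9.

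The 5 identical members with most KO reads differ among themselves. On chromosome 14, 90298001 to 90299000, reads were 153 in WT and 159 in KO, a scaled ratio of 0.790 (0.629 to 0.993), and the nearest other WT island was 1075000 bp away. On chromosome 17, 54259001 to 54260000, 133 reads in WT and 146 in KO gave 0.835 (0.656 to 1.06) after scaling, at 12.5-fold and 12.1-fold. Scaled reads at these strongly enriched narrow islands lay below 1, the second with an interval that includes 1.

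The other 3 had scaled ratios of 1.17 to 1.37. On chromosome 5, 134317801 to 134318800, WT held 93 reads and KO 159, at 2.90-fold and 13.1-fold, but there were 18 input reads in WT and only 9 in KO. On chromosome 10, 7091801 to 7092800, reads were 100 and 154 and the folds 6.25 and 11.4, with a scaled interval that includes 1. On chromosome 6, 103669601 to 103670600, reads were 81 and 146 and the folds 2.85 and 4.34.

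The members with the most WT reads were also 1000 bp wide each. The leader, on chromosome 4 at 86576601 to 86577600, had 225 reads and a fold of 7.03. It lies 400 bp from another WT island and was merged with it into a KO island of 3800 bp with 402 reads and a fold of 9.05. On chromosome 4, 88436601 to 88437600, there were 148 reads in WT, and 152 in a KO island of 1200 bp. On chromosome 1, 197067601 to 197068600, reads were 142 and 202 and the KO island 2600 bp wide. Both had high input, with 44 and 52 input reads in WT, and low folds of 1.89 and 1.53. The remaining 2 are the identical members on chromosomes 14 and 17 given above.

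The largest changes in fold rested on input as well as on ChIP reads. At least 20 ChIP and 10 input reads in each genotype were found in 1420 of the 3466 1 to 1 members. Among these the fold was higher in KO in 1351 (95.1%), with a median ratio of 1.84. Median input over all 3466 was 9 reads in WT and 14 in KO. The limit of 10 thus favours members with more WT input, and so a lower WT fold. Without these limits 81.5% were higher in KO, and nothing is read from the difference. Of the 1420, the highest ratio, 5.41 (2.33 to 12.6), was on chromosome 7 at 62395601 to 62396400. It had 54 reads in WT and 130 in KO, but 17 and 10 input reads, although the KO island was 1400 bp and the WT island 800 bp wide.

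The next 4 were alike, with ratios of 4.70 to 5.25. They lie on chromosome 17 at 54189201 to 54190000 (44 and 113 reads), on chromosome 4 at 9650401 to 9651400 (46 and 107), on chromosome 9 at 70751201 to 70752200 (59 and 113) and on chromosome 6 at 78832001 to 78832800 (34 and 93). In each of the 5 the KO island was wider and its input reads were fewer. By scaled reads their ratios were 1.46 to 2.08, each with an interval above 1.

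The 5 lowest ratios of fold, 0.635 to 0.689, all had intervals that include 1. On chromosome 2, 177853401 to 177854400, reads were 68 and 70 and input reads 14 and 30. On chromosome 17, 6131601 to 6132600, reads were 118 and 218, the latter in a KO island of 3400 bp, while the fold dropped from 6.63 to 4.26. Counts differed little at the others. On chromosome 16, 18036001 to 18037000, reads were 61 and 64, on chromosome 3, 83661201 to 83662200, 37 and 42, and on chromosome 18, 14822401 to 14823400, 35 and 31. Input reads were more numerous in KO in each, also per kb, and ChIP reads per kb as deposited were fewer. The share of input differed between them. In the wide KO island on chromosome 17, input reads per kb were 10 in WT and 11.2 in KO, while ChIP reads per kb went from 118 to 64.1.

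Wider WT islands that met the same conditions, 14327 in all, are set beside the members here by WT width. Width is part of the rule and a ratio over WT values is affected by a choice on them, so the order of the classes in width and reads is a description from which nothing is read. Among 1 to 1 pairs KO was wider in 78.7% of the members, 70.6% at WT widths of 1200 to 2000 bp, 73.2% at 2200 to 4000 bp and 64.6% above 4000 bp. KO was narrower in 6.23%, 17.3%, 19.6% and 28.7%. Called length in KO was 1.741, 1.438, 1.300 and 1.098 times that in WT, and the scaled read ratio was 1.497, 1.31, 1.05 and 0.924 in the same order. Scaled density showed no such order, at 0.860, 0.908, 0.809 and 0.841. The ratio of folds was 1.57, 1.74, 1.63 and 1.54, highest in the class next to the members. WT fold itself was 2.33, 2.17, 2.87 and 4.87, so the narrowest class was not the one least enriched.

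**Figure D5:**
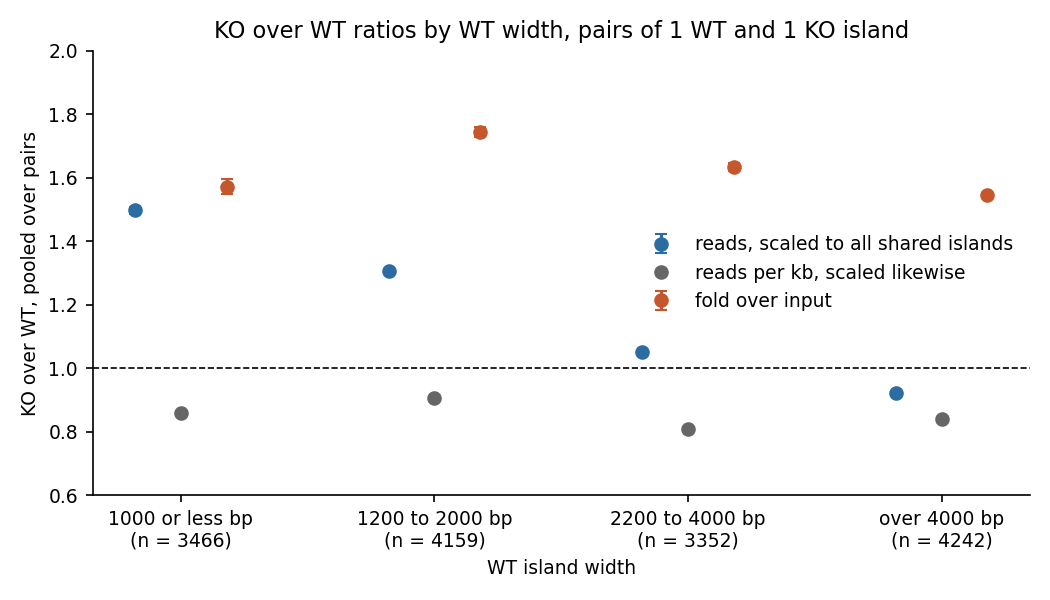
KO over WT ratios (vertical axis) pooled over pairs of 1 WT and 1 KO island in 4 classes of WT width (horizontal axis), for scaled reads, scaled reads per kb and fold over input; bars are 95% counting intervals, smaller than most points, and reads per kb are drawn without one. Scaled reads go from 1.497 in the members to 0.924 above 4000 bp, reads per kb lie below 1 and fold over input above 1.5 in all 4 classes.

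Within the members the order by WT width was alike for some measures and not for others. Among 1 to 1 members the median KO width was 500, 800, 1000, 1200 and 1400 bp for WT widths of 200 to 1000 bp in steps of 200 bp, so the longer islands gained at least as many windows as the shorter ones but a smaller share of their width. Scaled reads were 1.54, 1.53, 1.58, 1.52 and 1.44 from 200 to 1000 bp, the interval of the last lying below the others except that of 200 bp. The ratio of folds went from 0.977 (0.813 to 1.17) at 200 bp through 1.33, 1.52 and 1.57 to 1.65 (1.61 to 1.68) at 1000 bp. WT islands of a single window were the densest, with 93.0 reads per kb and a WT fold of 3.68.

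Sorted by WT reads, the members also differed in width, with a median of 600 bp in the group with fewest reads and 1000 bp in that with most. WT reads are the denominator of the read ratio as well, so the values that follow are descriptions alone. By WT width only, KO islands at least 2 times as wide went from 57.0% at 400 bp to 20.4% at 1000 bp. Among 942 1 to 1 members with 29 or fewer WT reads, 45.5% had a KO island at least 2 times as wide, and the scaled read ratio was 1.72 (1.69 to 1.75). Among the 805 with most reads, 50 to 153, it was 23.7% and 1.32 (1.31 to 1.34). The ratio of folds took the opposite order, 1.33 and 1.80. Input reads per kb in WT were 10.3 and 15.6 in these groups, and in KO 11.8 and 12.3. Sorted by WT fold, 1 to 1 members gave ratios of folds of 1.90 in the lowest 876 and 0.967 (0.932 to 1.00) in the highest 867. WT fold is close to the values that chose the members. It is also the denominator of this ratio, and WT input is the denominator of WT fold, so nothing is read from the order. Input reads per kb moved with the sort: 17.0 in WT against 13.2 in KO in the lowest group, 7.06 against 10.4 in the highest. Their part in the result was not tested.

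Most members stood alone. The nearest other WT island was a median of 31100 bp away, and 25.1% of the members had one within 5 kb. For 17.7% the nearest was within 5 kb and over 2000 bp wide. The wider kept islands lay closer to others, at a median of 11800 bp with 35.2% within 5 kb. For 17.1% of them the nearest was within 5 kb and over 2000 bp wide. The 586 narrow WT islands with neither a KO island nor H3K27me3 lay closer still, at a median of 2000 bp. Of these, 50.7% were next to an island over 2000 bp within 5 kb. The limit on KO width could remove none of the 586, while it dropped 375 narrow islands from the members. KO islands without a WT island lay within 5 kb of 404 members (10.1%), against 21.4% of the wider kept islands. H3K27me3 islands were far from most members, with a median of 133600 bp to the nearest and 4.10% within 5 kb. The rule excludes overlap with them, and the wider kept islands were alike, at 126400 bp and 4.11%.

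The members lay on every autosome, 88 to 309 on each. They were 10.5% of the WT islands on chromosome 11 and 20.4% on chromosome 3, the extremes. KO was wider in 75.6 to 82.2% of the 1 to 1 members of each chromosome, the scaled read ratio was 1.39 to 1.62 and the ratio of folds 1.44 to 1.73. No chromosome went against the rest.

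Islands on either side of the limits had like values. The 1369 members of 1000 bp had a median of 44 WT and 97 KO reads, and the 1343 islands of 1200 bp that met the other conditions 52 and 116. The 11 members whose widest KO island was 9800 bp had 22 to 38 WT reads and 439 to 1417 KO reads. The 6 excluded at 10000 bp had 26 to 41 and 780 to 1792.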

How the data were processed

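H3K4me3 and H3K27me3 were mapped by ChIP-seq in 4 of the 10 samples, with 50 bp reads; the 4 nuclease libraries and the 2 inputs as samples of their own were not used here. Per the submitters' processing notes, the authors used Bowtie (version not given), SICER 1.1 and mm9. Islands were called per sample from 200 bp windows at an FDR of 0.05, across gaps of up to 200 bp (H3K4me3) or 600 bp (H3K27me3), per the names of the deposited lists. How duplicate reads were treated is not stated. Each deposited list gives ChIP and control read counts, not scaled; a deposited p-value and its adjusted value; and a deposited fold, which equals ChIP over control reads times 1 constant per list in 100% of islands with control reads (0.25 stands for a control count of 0, which 52 members had in WT and 11 in KO). Library totals are not in the lists, and reads outside islands are not counted.

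Positions were made 1-based, with 1 added to starts and ends. Members and comparison sets followed from overlaps of 1 bp or more. The rule, sets and alternatives were chosen with earlier results of these data known. Every H3K4me3 measure belongs to the contrast that chose the members, so none is tested. Ratios of counts have exact conditional binomial intervals, ratios of folds normal intervals on the log scale and shares exact binomial (Clopper-Pearson) ones, which treat islands as independent draws; read counts without molecular identifiers cover counting error only. Named positions are, 5 per rule, those with the highest and lowest ratio of folds, the widest unmerged KO island, the most members merged, the most WT reads, and identical ends with most KO reads. The code recovered 200 widened islands in simulated lists, and overlaps differed from bedtools 2.31.1 by 0 islands. Python 3.11.15, numpy 2.4.6, pandas 2.3.3, scipy 1.17.1 and matplotlib 3.10.9 were used.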

Additional observations from a re-analysis of the deposited data

How the results depend on the processing

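With the members as chosen, there were 4002, the KO island was wider in 81.5%, 13.4% were merged, scaled reads in 1 to 1 members had a ratio of 1.497 and the ratio of folds in identical intervals was 1.64. Of 48 values under alternatives, 24 moved by more than their counting interval (members: by more than 1.5 times). The number of members and the share merged have no direction that could turn. None of the values for widening, reads and identical intervals turned its direction, but for widening chosen on the KO list wider and narrower islands were nearly equal in number. Scaled density, for which direction depended on the measure, was not among these values. A width limit of 800 bp gave 2633 members, 83.5% wider and scaled reads of 1.54; 1200 bp gave 80.1% and 1.46. An overlap of 50% of the smaller island left 12.1% merged. An FDR of 1e-05 gave 2124 members, 15.3% merged, scaled reads of 1.45 and a ratio of folds of 1.43. With no limit on KO width 83.1% were wider, 20.6% merged and scaled reads 1.51. With the KO list shortened to the WT length by most reads, which removes weak KO islands, these were 91.1%, 17.8% and 1.64, and the ratio of folds in identical intervals 1.80. The read ratio was 1.97 without scaling and 1.57 as fold over input. Chosen on the KO list, 37.4% were wider and 36.7% narrower, 9.65% were merged and scaled reads were 1.05. Pairs chosen on the mean of both widths, an alternative added after the data were seen, gave 60.4% and 1.25. The cause of these differences was not tested. No paired analysis was possible because each genotype had 1 library per mark and no test was made. Differences in depth, antibody efficiency and genotype between these libraries cannot be told apart, and library totals are unknown. Few input reads per member limit the fold of any 1 island.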
